A study of Mus musculus with 2 samples.

Results

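Of the 50768 genes counted in both single-cell libraries, 5 form a pair of chemokine axes, and all 5 were found by symbol in each library. *Cxcl9* and *Cxcl10* encode ligands of the receptor CXCR3, whose gene is *Cxcr3*. *Cxcl16* encodes the ligand of CXCR6, whose gene is *Cxcr6*. The genes were chosen by name, though earlier results of these data were known when they were chosen. The question was which cells carried each ligand and each receptor in either mouse strain.

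CXCL9 and CXCL10 are small secreted proteins that macrophages, dendritic cells, endothelial cells and stromal cells make after interferon-gamma acts through the kinases JAK1 and JAK2. They bind CXCR3, a G-protein-coupled receptor of activated T cells and natural killer (NK) cells, and draw these cells into inflamed tissue, the salivary gland of Sjögren's disease among them. CXCL16 differs in form, since it is made as a membrane protein and is released when the proteases ADAM10 or ADAM17 cut it. Its receptor CXCR6 marks T cells and innate lymphocytes that reside in tissue.

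The single-cell RNA sequencing (scRNAseq) compared 1 library of NOD/ShiLtJ mice (NOD/ShiltJ in the sample labels), an inbred strain used as a model of Sjögren's disease, with 1 library of outbred CD1 mice. Both came from pooled, untreated female mice of 20 weeks, with submandibular and adjacent sublingual glands in 1 preparation. The study's methods give 4 mice per pool and collagenase/hyaluronidase with dispase, whereas the labels give 3 mice per pool and Liberase with dispase. Cells bearing EpCAM (epithelial) or Ter119 (erythroid) and dead cells were removed first, so the balance of cell types describes what these steps left. With 1 pooled library per strain there was no replicate, no difference between strains could be tested, and every interval below is a 95% interval that covers counting error only.

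Each value rests on unique molecular identifiers (UMIs), tags that let every captured RNA molecule be counted once. Barcodes with at least 500 UMIs and at least 300 genes were kept, 6500 in NOD and 7014 in CD1, with medians of 5719.5 and 6495 UMIs, and 18 barcode sequences occurred in both libraries. A barcode took the class for which it held at least 75% of all lineage marker UMIs, and levels are given as UMIs of the gene per 1000000 UMIs of the class (CPM). Although the labels call the cells stromal enriched, only 55 NOD and 15 CD1 barcodes were fibroblast-like. NOD held 2142 T-like, 500 NK-like, 885 B-like, 693 macrophage-like and 1060 endothelial-like barcodes. CD1 held 114, 351, 8, 2919 and 2884 of these classes in the same order. Barcodes with T and NK markers in similar amounts (466 and 41) are called T/NK intermediate, and 275 and 254 barcodes with markers of more than 1 lineage are called mixed. Macrophage-like barcodes were shallower in NOD than in CD1 (medians of 3050 and 7012 UMIs), so shares of barcodes are also given after thinning each barcode to 2000 UMIs.

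*Cxcl9* and *Cxcl10* lie beside each other on chromosome 5, and since both were higher in NOD macrophage-like barcodes, the 250 bases before each transcription start are shown for comparison. The sequences are from RefSeq on GRCm38.p6, at chr5:92328080-92328329 for *Cxcl9* and chr5:92348890-92349139 for *Cxcl10*, both on the minus strand, whereas the labels name GRCm39 for the counts. Capitals mark matches, on either strand, to the interferon-stimulated response element (ISRE, GAAANNGAAA), the gamma-activated site (GAS, TTCNNNGAA) or the NF-kB consensus.
Cxcl9: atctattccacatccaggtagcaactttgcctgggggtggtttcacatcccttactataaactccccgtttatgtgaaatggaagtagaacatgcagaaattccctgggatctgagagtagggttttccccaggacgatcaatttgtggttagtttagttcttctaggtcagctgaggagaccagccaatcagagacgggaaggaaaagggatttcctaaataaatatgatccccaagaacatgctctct
Cxcl10: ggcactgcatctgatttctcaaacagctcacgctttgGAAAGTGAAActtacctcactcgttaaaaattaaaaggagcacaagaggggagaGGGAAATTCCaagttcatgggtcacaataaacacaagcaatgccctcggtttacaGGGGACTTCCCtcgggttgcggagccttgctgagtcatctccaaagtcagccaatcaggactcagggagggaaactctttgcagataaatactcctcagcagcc
The *Cxcl10* window held 1 ISRE, 213 to 204 bases before the start, and 3 NF-kB consensus matches that began 159, 104 and 103 bases before it, the last 2 overlapping each other. The *Cxcl9*, *Cxcr3* and *Cxcr6* windows held none of the 3 motifs. Of 32851 promoter windows with these 250 bases, 2.98% held an ISRE, 7.02% a GAS and 7.25% an NF-kB consensus. These are matches of letters within 1 window and not measured binding, and 4 of the 5 genes were in the promoter table (*Cxcl16* was not).

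*Cxcl9* was carried mainly by myeloid barcodes in both strains and was higher in NOD. Macrophage-like barcodes held 1232 *Cxcl9* UMIs in NOD (316 CPM, 299 to 335) and 638 in CD1 (32.3 CPM, 29.9 to 34.9), which is 9.79-fold more per UMI in NOD and a log2 ratio of 3.29 (3.15 to 3.43). The level was higher still in 31 NOD dendritic-like barcodes, at 816 CPM (734 to 904). It was 1154 CPM in 26 NOD barcodes of mixed macrophage, monocyte and dendritic markers (myeloid intermediate). These few barcodes had the highest class levels of *Cxcl9* in the study. A UMI was present in only 7 of the dendritic-like and 6 of the myeloid intermediate ones. Single barcodes held 169 and 161 of the 366 dendritic-like UMIs and 189 of the 311 myeloid intermediate ones. In CD1, the 45 myeloid intermediate barcodes had 50.8 CPM, from 18 UMIs in 1 barcode, and the 4 dendritic-like barcodes held no *Cxcl9* UMI. Set to 3 UMIs over the class this would be 43.4 CPM, which covers the counting of UMIs only. With the gene in 7 of 31 NOD dendritic-like barcodes, 4 barcodes are too few to set a ceiling for CD1.

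Outside the myeloid lineage, *Cxcl9* was seen in NOD stromal and vascular barcodes. The 55 NOD fibroblast-like barcodes held 147 UMIs (262 CPM, 221 to 308), and the 15 CD1 ones held none, so the NOD level was at least 12.7-fold higher when CD1 is set to 3 UMIs over the class. Of those 147 UMIs, 65 and 64 lay in 2 barcodes, and the bound does not allow for this. Endothelial-like barcodes had 33.1 CPM in NOD and 3.78 in CD1, a log2 ratio of 3.13 (2.74 to 3.54), with 102 of 198 NOD UMIs and 53 of 73 CD1 UMIs in a single barcode. With each barcode weighted equally this ratio was 2.07, and with at most 10% mitochondrial UMIs it was 2.12. Macrophage markers summed to 426 CPM in NOD and 1024 CPM in CD1 fibroblast-like barcodes (6 and 8 of 9 detected, *Mrc1* at 0 in both), and to 58.3 and 93.8 CPM in endothelial-like ones (8 and 9 of 9). Endothelial markers summed to 198 and 137 CPM in NOD and CD1 fibroblast-like barcodes (9 and 4 of 10 detected). The part of these in the *Cxcl9* values was not tested.

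*Cxcl9* came from few barcodes. A UMI was present in 89 of 693 NOD macrophage-like barcodes (12.8%, 10.4 to 15.6) and in 26 of 2919 in CD1 (0.891%, 0.583 to 1.30), or 9.09% and 0.554% at 2000 UMIs. In T-like barcodes, which should lack the gene, it was present in 8 of 2142 in NOD (0.373%, median depth 5946 UMIs) and in 0 of 114 in CD1, which allows up to 2.63%. The NOD macrophage-like share lay far above this T-like share at a lower depth, whereas the CD1 share lay below what the CD1 T-like class could exclude. The 10 highest barcodes held 53.8% of all *Cxcl9* UMIs in NOD and 90.6% in CD1, and the highest single barcode held 223 and 270. Because so few barcodes decide the level, the Poisson interval is narrower than the true uncertainty. When at most 10 UMIs were counted per barcode, a setting chosen after the data were seen, the log2 ratio in macrophage-like barcodes was 4.07.

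The barcodes highest in *Cxcl9* were not all macrophage-like. Of the 10 highest in NOD, 3 were macrophage-like, 2 dendritic-like, 1 myeloid intermediate, 1 endothelial-like and 3 mixed. In CD1, 6 of 10 were macrophage-like, and the third highest, with 107 UMIs, was a plasma-like barcode of 79609 UMIs that also held 33 UMIs of *Xcr1*, a receptor of cross-presenting dendritic cells. Looked at after these values were seen, barcodes with at least 3 *Xcr1* UMIs had 841 CPM of *Cxcl9* in NOD (18 barcodes) and 639 CPM in CD1 (4 barcodes, all of it from that 1 barcode). *Xcr1*-bearing barcodes thus held 14.5% and 12.4% of all *Cxcl9* UMIs.

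**Figure D1:**
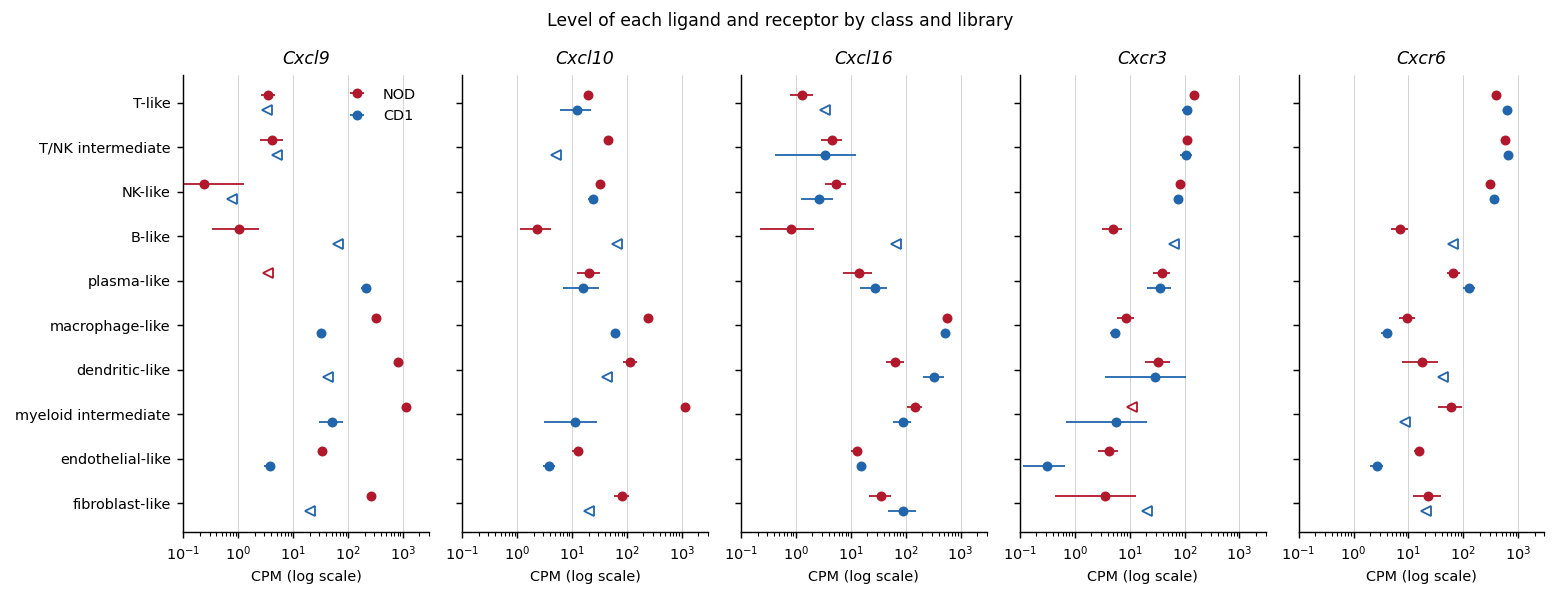
Level of each gene (CPM, log scale) in 10 classes of the NOD (red) and CD1 (blue) libraries; points are class levels, bars are 95% Poisson intervals, and open triangles mark classes with no UMI, placed at the level of 3 UMIs. *Cxcl9* in macrophage-like barcodes had 316 CPM in NOD against 32.3 in CD1, whereas *Cxcl16* had 565 and 515.

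*Cxcl10* was also highest in myeloid barcodes. Its difference between strains was smaller than that of *Cxcl9* in macrophage-like barcodes and larger in myeloid intermediate ones (log2 ratios of 6.66 and 4.51). In NOD its UMIs were spread more widely over lineages than those of *Cxcl9*. In CD1 they were not, with 85.4% of *Cxcl10* and 76.1% of *Cxcl9* UMIs in myeloid barcodes. Macrophage-like barcodes held 939 UMIs in NOD (241 CPM, 226 to 257) and 1197 in CD1 (60.7 CPM, 57.3 to 64.2), 3.98-fold higher per UMI in NOD and a log2 ratio of 1.99 (1.87 to 2.12). A UMI was present in 84 of 693 NOD and 171 of 2919 CD1 macrophage-like barcodes. The 10 highest barcodes of any class held 37.0% of all *Cxcl10* UMIs in NOD and 53.2% in CD1. The intervals are therefore narrower than the true uncertainty here too. NOD myeloid intermediate barcodes had 1140 CPM against 11.3 in CD1, where the count was 4 UMIs. The gene lay in 5 of the 26 NOD barcodes, and 1 of them held 148 of the 307 UMIs. The genes most enriched in this class were only in part the same in both strains. The 31 NOD dendritic-like barcodes had 116 CPM. NOD fibroblast-like barcodes had 80.2 CPM (45 UMIs) and CD1 ones had no UMI. With CD1 set to 3 UMIs over the class, NOD was at least 3.89-fold higher, a bound that covers the counting of UMIs only. The gene lay in 6 of the 55 NOD fibroblast-like barcodes, so 15 CD1 barcodes without it are too few to set a ceiling for CD1.

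Endothelial-like *Cxcl10* was low in both strains, at 12.9 CPM in NOD and 3.83 in CD1, a log2 ratio of 1.75 (1.27 to 2.23). A single CD1 barcode held 49 of the 74 CD1 UMIs. When free RNA was subtracted, the log2 ratio turned to -1.35, and with at most 10 UMIs counted per barcode it was 2.79, so no direction is read from it.

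*Cxcl10* was also found in lymphocyte barcodes. NOD T/NK barcodes held 619 *Cxcl10* UMIs and 68 *Cxcl9* UMIs, 34 of the latter in 1 barcode. T-like barcodes had 19.5 CPM in NOD (267 UMIs in 77 barcodes) and 12.2 in CD1 (11 UMIs), with an interval of the log2 ratio (-0.19 to 1.69) that held 0. NK-like barcodes had 32.8 and 24.0 CPM, a log2 ratio of 0.45 (0.06 to 0.84). T/NK intermediate barcodes had 45.5 CPM in NOD (211 UMIs) and no UMI in the 41 CD1 barcodes, at least 8.81-fold higher in NOD. In all, T/NK barcodes held 27.0% of the NOD *Cxcl10* UMIs and 7.39% of those in CD1. NOD B-like barcodes, for comparison, had 2.27 CPM. Relative to the level in empty droplets (10 to 100 UMIs), NOD T-like barcodes held *Cxcl10* at 35.4%, *Cxcl9* at 7.55% and *Cxcl16* at 2.17%, and NOD B-like barcodes held *Cxcl10* at 4.14%. For *Cxcl10* this was 48.5% in CD1 T-like barcodes, 82.9% in NOD T/NK intermediate barcodes and 59.7% in NOD NK-like barcodes. The CD1 NK-like level of 24.0 CPM was close to the 25.2 CPM of CD1 empty droplets. Macrophage markers summed to 17.3 CPM in NOD T-like barcodes (9 of 9 detected) and 38.9 in CD1 (7 of 9), and their part in the *Cxcl10* values was not tested.

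*Cxcl9* and *Cxcl10* shared barcodes. Of the NOD macrophage-like barcodes with *Cxcl9*, 36.0% also held *Cxcl10*, against 8.61% of those without. In CD1 these were 53.8% and 5.43%. Barcodes with *Cxcl9* were deeper (medians of 6676 and 2871 UMIs in NOD), so the shares were compared at 2000 UMIs, where *Cxcl10* was in 24.5% and 6.77% of barcodes in NOD and in 47.7% and 2.79% in CD1. The difference in share was therefore present at equal depth in both strains.

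*Irf1* and *Cd69* were also higher in the macrophage-like barcodes with *Cxcl9*. *Irf1*, a transcription factor induced by interferons, was 202 against 116 CPM in NOD and 499 against 77.2 in CD1. *Cd69*, an early activation marker, had log2 ratios of 1.10 in NOD and 3.36 in CD1. The receptor gene *Ifngr1* was not higher, at 191 against 224 CPM in NOD and 208 against 309 in CD1. At 2000 UMIs *Irf1* was in 25.2% and 19.4% of NOD barcodes with and without *Cxcl9*, and in 30.6% and 12.9% in CD1.

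**Figure D2:**
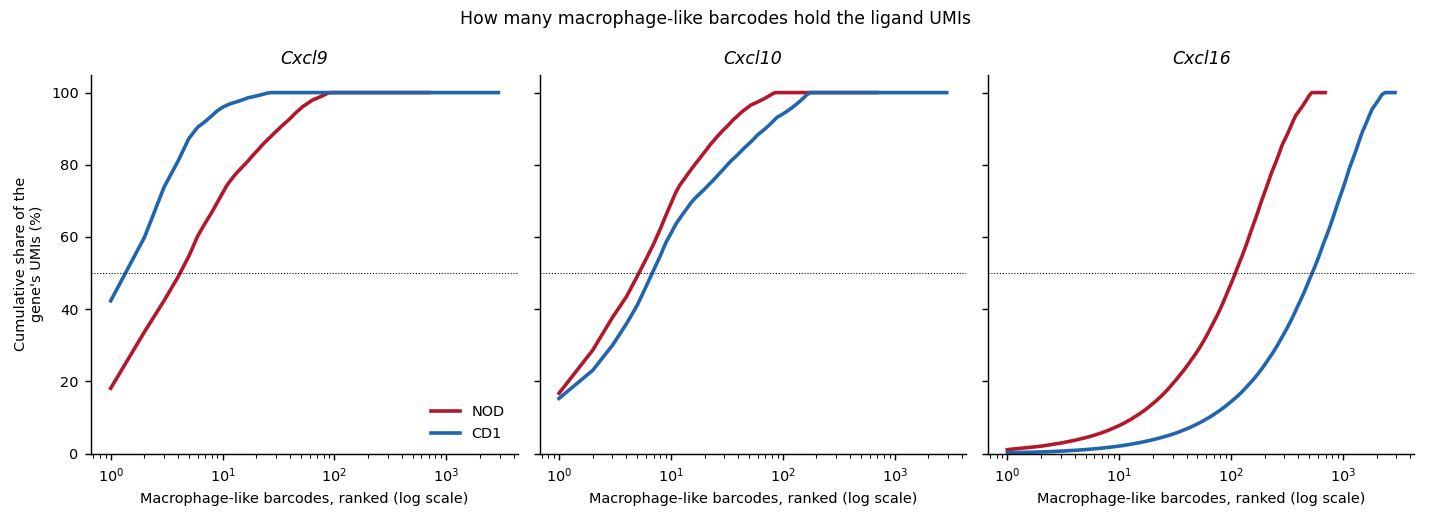
Cumulative share of the UMIs of each ligand (%) over macrophage-like barcodes ranked from the highest (log scale), in NOD (red) and CD1 (blue); the dotted line marks 50%. The curve of macrophage-like *Cxcl9* reached 50% at 5 NOD and 2 CD1 barcodes, and that of *Cxcl16* at 110 and 531.

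*Cxcl16* was a gene of most macrophage-like barcodes in both strains. Its level there was 565 CPM in NOD (2198 UMIs, 541 to 589) and 515 CPM in CD1 (10165 UMIs, 505 to 525), 1.10-fold higher in NOD and a log2 ratio of 0.13 (0.06 to 0.20). By cluster in place of marker class the log2 ratio was -0.11, so the direction depended on how the class was drawn. The gene was present in 517 of 693 NOD macrophage-like barcodes (74.6%, 71.2 to 77.8) and in 2286 of 2919 in CD1 (78.3%, 76.8 to 79.8), or 65.4% and 60.3% at 2000 UMIs.

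No barcode dominated *Cxcl16*. The 3 highest macrophage-like barcodes held 24, 21 and 19 UMIs in NOD and 23 each in CD1. The 10 highest barcodes of any class held 6.69% of all *Cxcl16* UMIs in NOD and 1.92% in CD1. Macrophage-like barcodes with *Cxcl9* had log2 ratios of *Cxcl16* over those without of 0.10 (-0.06 to 0.25) in NOD and 0.42 (0.17 to 0.66) in CD1. At 2000 UMIs *Cxcl16* was in 68.1% of NOD macrophage-like barcodes with *Cxcl9* and 65.0% of those without, and in 73.6% and 60.2% in CD1.

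Dendritic-like barcodes had 64.6 CPM of *Cxcl16* in NOD (29 UMIs) and 333 CPM in CD1 (23 UMIs in 2 of 4 barcodes, 211 to 499). Endothelial-like barcodes had 12.7 CPM in NOD and 15.4 in CD1, with a log2 ratio of -0.28 (-0.66 to 0.09), and fibroblast-like ones had 35.6 and 89.3 CPM (20 and 13 UMIs). Empty droplets had 60.4 CPM of *Cxcl16* in NOD and 241 CPM in CD1. Relative to these, dendritic-like levels were 107% and 138%, and fibroblast-like levels 59.0% and 37.1%. The part of free RNA in the values of these classes was not tested. T-like barcodes had 1.31 CPM in NOD (16 of 2142 barcodes, 0.747%) and no UMI in CD1. The T-like share gives the background against which the macrophage-like share is read.

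By source, the myeloid classes together held 66.6% (64.9 to 68.4) of *Cxcl9* UMIs in NOD and 76.1% (73.1 to 78.9) in CD1. For *Cxcl10* they held 56.5% (54.5 to 58.6) and 85.4% (83.4 to 87.2), and for *Cxcl16* 82.5% (81.0 to 83.9) and 92.2% (91.7 to 92.7). The myeloid share of all 3 ligands was smaller in NOD by marker class, where 11.6% of barcodes were myeloid against 42.4% in CD1. This order turned for *Cxcl9* by cluster (84.0% in NOD and 76.1% in CD1) and for *Cxcl16* with free RNA subtracted (96.7% and 96.0%). Mixed barcodes held 18.6% of the NOD *Cxcl9* UMIs, 465 of these 532 UMIs in barcodes with T/NK and myeloid markers together.

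**Figure D3:**
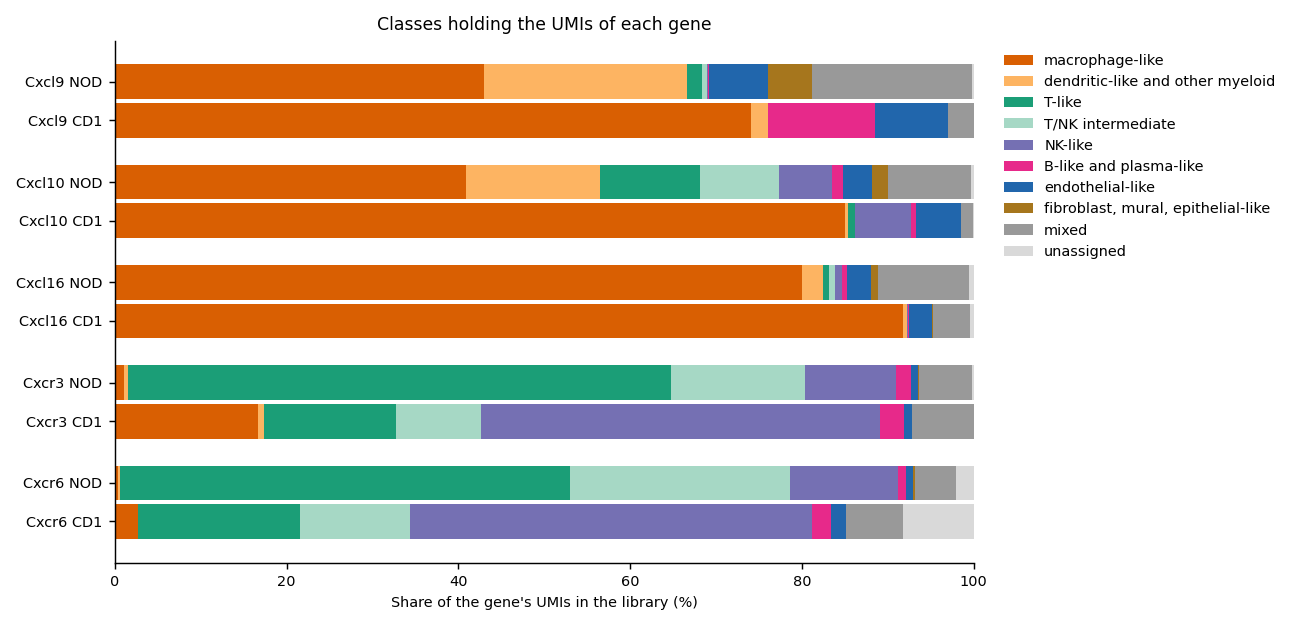
Share of the UMIs of each gene (%, bars from 0 to 100) held by each class in the NOD and CD1 libraries. Myeloid classes (orange) held most ligand UMIs, and T and NK classes (green and purple) held 89.5% of *Cxcr3* UMIs in NOD and 71.8% in CD1.

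*Cxcr3* was carried by T and NK barcodes, and within the T-like, T/NK intermediate and NK-like classes the strains lay within 2-fold of each other. Over all T/NK barcodes together it was 130 CPM in NOD and 85.8 in CD1. That log2 ratio of 0.60 (0.46 to 0.74) also holds the balance of the classes. T-like barcodes had 152 CPM in NOD (2080 UMIs, 145 to 158) and 110 CPM in CD1 (99 UMIs, 89.5 to 134), 1.38-fold higher in NOD and a log2 ratio of 0.46 (0.17 to 0.77). NK-like barcodes had 81.1 CPM in NOD (349 UMIs) and 76.8 in CD1 (298 UMIs), with an interval of the log2 ratio (-0.15 to 0.31) that held 0. T/NK intermediate barcodes had 111 and 109 CPM. When classes were taken from clusters, which put 2470 NOD and 209 CD1 barcodes in T clusters, the T-like log2 ratio of *Cxcr3* was 1.15.

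A *Cxcr3* UMI was present in 971 of 2142 NOD T-like barcodes (45.3%, 43.2 to 47.5) and 53 of 114 in CD1 (46.5%, 37.1 to 56.1). At 2000 UMIs these were 23.2% and 19.5%. Endothelial-like barcodes, which served as background, held one in 1.70% in NOD and 0.208% in CD1 (median depths of 5046.5 and 6145.5 UMIs). The T-like share was therefore many times this background in either strain, and the strains overlapped in it.

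Among NOD T-like barcodes, the order of *Cxcr3* levels was CD8 (200.3 CPM, 186 to 215), CD4 (151 CPM, 141 to 161), *Foxp3*-bearing, the marker of regulatory T cells (135 CPM, 117 to 155), and other T-like barcodes (97.7 CPM, 86.4 to 110). The CD4 and *Foxp3* intervals overlapped, while CD8 lay above and the other barcodes below both. In CD1, 33 CD4 barcodes had 175 CPM (127 to 234) and 18 CD8 barcodes had 134 CPM (85.7 to 199), with overlapping intervals. The 3 CD1 *Foxp3* barcodes held 1 UMI. For no subset with more than 3 CD1 barcodes except the other T-like barcodes did the interval of the log2 ratio leave out 0, and for those it was 0.56 (0.00 to 1.17).

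Outside T and NK barcodes *Cxcr3* was low. Macrophage-like barcodes had 8.48 CPM in NOD and 5.42 in CD1, which were 10.5% and 34.5% of the empty-droplet level of the gene. NOD B-like barcodes had 4.96 CPM. Plasma-like barcodes had 39.3 CPM (34 UMIs, 15 of them in 1 barcode) and 35.3 CPM (18 UMIs). Endothelial-like barcodes had 4.18 CPM in NOD and 0.311 in CD1 (25 and 6 UMIs).

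*Cxcr6* was carried by the same lymphocyte classes as *Cxcr3*, and within each of these marker classes it was lower in NOD than in CD1. Over all T/NK barcodes together it was 418 CPM in NOD and 434 in CD1. That log2 ratio of -0.05 (-0.12 to 0.01) also holds the balance of the classes. T-like barcodes had 399 CPM in NOD (5478 UMIs, 389 to 410) and 620 CPM in CD1 (557 UMIs, 569 to 673), 1.55-fold lower in NOD and a log2 ratio of -0.63 (-0.76 to -0.51). In NK-like barcodes the levels were 305 CPM (289 to 322) for NOD and 357 CPM (339 to 377) for CD1, with a log2 ratio of -0.23 (-0.34 to -0.12). T/NK intermediate barcodes had 578 and 655 CPM, -0.18 (-0.34 to -0.02). By cluster the T-like log2 ratio was -0.50 and the NK-like one turned to 0.21, so the NK-like direction depended on how the class was drawn.

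A *Cxcr6* UMI was present in 1173 of 2142 NOD T-like barcodes (54.8%, 52.6 to 56.9) and in 95 of 114 in CD1 (83.3%, 75.2 to 89.7), or 39.9% and 64.8% at 2000 UMIs. For NK-like barcodes the shares were 44.8% and 69.5%, or 32.5% and 42.5% at 2000 UMIs. In endothelial-like barcodes it was 3.96% and 0.693%. Both the level and the share in T-like barcodes were thus lower in NOD, and the shares in both lymphocyte classes lay far above the endothelial-like background.

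The subsets of NOD T-like barcodes differed widely in *Cxcr6*. CD8 barcodes had 615 CPM (589 to 641), other T-like barcodes 506 (480 to 534), CD4 barcodes 298 (284 to 312) and *Foxp3* barcodes 80.4 (66.7 to 96.2). None of these intervals overlapped. In CD1 the values were 769 CPM in CD8, 688 in other T-like, 443 in CD4 and 162 in *Foxp3* barcodes, the last from 4 UMIs. The CD1 order was that of NOD, but its CD8 and other T-like intervals overlapped. The log2 ratio of NOD over CD1 was -0.57 (-0.85 to -0.29) in CD4, -0.32 (-0.57 to -0.07) in CD8 and -0.44 (-0.62 to -0.26) in other T-like barcodes. Each subset was therefore lower in NOD than in CD1, with an interval that held 0 only for *Foxp3* (-2.41 to 0.89).

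**Figure D4:**
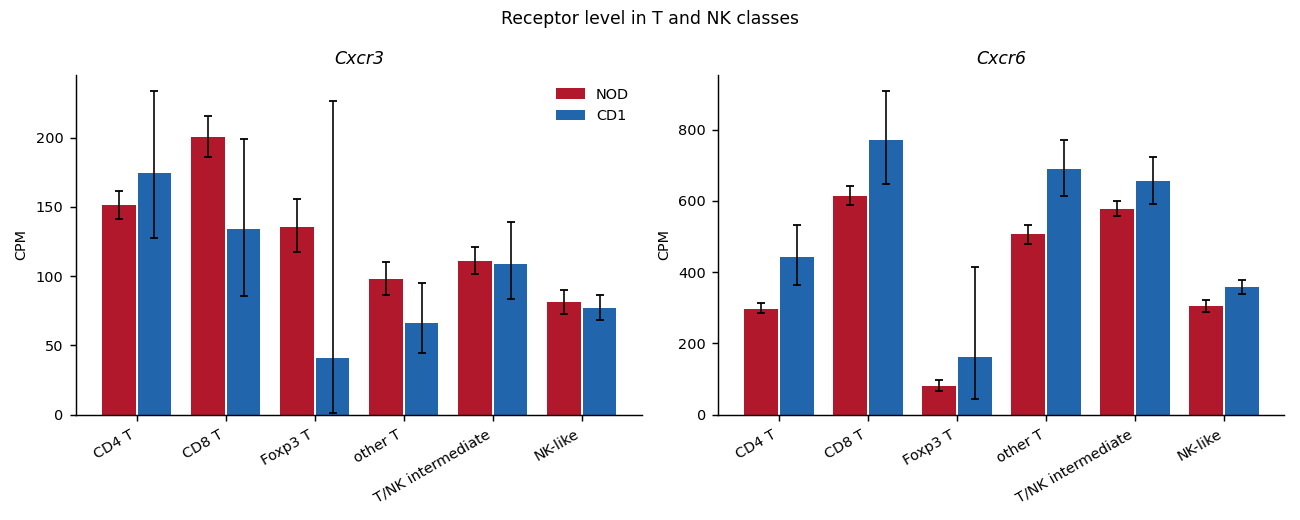
Levels of *Cxcr3* and *Cxcr6* (CPM, bars from 0) in 4 subsets of T-like barcodes, T/NK intermediate and NK-like barcodes of NOD (red) and CD1 (blue), with 95% Poisson intervals. *Cxcr6* was highest in CD8 barcodes (615 and 769 CPM) and lowest in *Foxp3* barcodes (80.4 and 162), where CD1 had 3 barcodes.

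The receptors overlapped in T-like barcodes. In NOD, 657 barcodes held both, 314 *Cxcr3* alone, 516 *Cxcr6* alone and 655 neither. In CD1, 48 held both, 5 *Cxcr3* alone, 47 *Cxcr6* alone and 14 neither. Of barcodes with *Cxcr3*, 67.7% in NOD and 90.6% in CD1 also held *Cxcr6*, and of those without it 44.1% and 77.0%. At 2000 UMIs *Cxcr6* was in 46.6% and 33.5% of NOD T-like barcodes with and without *Cxcr3*, and in 67.4% and 62.5% in CD1. NOD *Foxp3* barcodes stood apart, since 28.6% of those with *Cxcr3* held *Cxcr6*, against 85.2% of NOD CD8 barcodes.

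T-like barcodes with *Cxcr6* in NOD were higher than those without in several genes of tissue-resident lymphocytes. The comparison was not made within subsets, and the subset mix differed. CD8 barcodes were 522 of the 2142 T-like barcodes and 406 of the 1173 with *Cxcr6*. For *Foxp3* barcodes these counts were 207 and 50. The part of this mix in the values was not tested. *Itga1*, an integrin of resident T cells, was 379 CPM in barcodes with *Cxcr6* and 38.9 in those without, a log2 ratio of 3.28 (3.08 to 3.49). *Runx3*, a transcription factor of resident and CD8 T cells, was 308 and 109 CPM, and *Itgae*, the integrin that binds epithelial E-cadherin, was 134 and 55.1. *Tbx21*, which encodes T-bet, was 144 and 60.7 CPM, whereas *Cd69* was 280 and 242. The barcodes with *Cxcr6* were deeper (medians of 6617 and 5083 UMIs), and at 2000 UMIs *Itga1* was in 34.7% and 4.51% of them. In CD1, where only 19 T-like barcodes lacked *Cxcr6*, *Itga1* was 134 and 42.9 CPM and *Runx3* 308 and 77.2. *Tbx21* did not differ beyond counting error there, with a log2 ratio of -0.29 (-1.39 to 1.01), and *Cd69* was lower with *Cxcr6*, at -0.69 (-1.21 to -0.14).

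A further group of barcodes held *Cxcr6* without a class. Unassigned barcodes had 319 CPM in NOD and 339 in CD1, about as much as NK-like barcodes, and the gene lay in 79 of 308 and 50 of 300 of them. Named after their values were seen, *Gata3* was in 62.0% of these 79 barcodes in NOD and 82.0% of these 50 in CD1, *Il7r* in 73.4% and 84.0%, and *Il1rl1*, the IL-33 receptor, in 46.8% and 86.0%. *Cd3e* was in 8.86% and 2.00%, and *Ncr1* in 3.80% and 2.00%. No list fitted them, and they are left unnamed.

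By source, T/NK barcodes held 89.5% (88.4 to 90.6) of *Cxcr3* UMIs in NOD and 71.8% (68.1 to 75.2) in CD1, and 90.6% and 78.5% (77.0 to 80.0) of *Cxcr6* UMIs. The leading class differed. T-like barcodes held 63.3% of NOD *Cxcr3* UMIs and 52.4% of NOD *Cxcr6* UMIs, whereas in CD1 NK-like barcodes led with 46.5% and 46.9%. The more numerous CD1 macrophage-like barcodes held 16.7% of CD1 *Cxcr3* UMIs, at the low level per UMI given above.

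Over all kept barcodes, *Cxcl9*, *Cxcl10*, *Cxcr3* and *Cxcr6* were higher in NOD, and *Cxcl16* was lower. *Cxcl9* was 66.0 CPM in NOD and 17.4 in CD1, and *Cxcl10* was 52.9 and 28.5. *Cxcl16* was 63.3 and 224 CPM, *Cxcr3* 75.7 and 13.0, and *Cxcr6* 241 and 59.9. These totals join the level within classes with the number of barcodes per class, so the CD1 class levels were also weighted by the NOD share of each class. On that common mix the log2 ratio was 2.94 for *Cxcl9* (1.92 over all barcodes), 2.01 for *Cxcl10* (0.89), -0.10 for *Cxcl16* (-1.83), 0.42 for *Cxcr3* (2.54) and -0.39 for *Cxcr6* (2.01). The CD1 side of the *Cxcl9* value, 8.57 CPM, takes in the plasma-like class at 210 CPM, from the 107 UMIs of 1 barcode. The ratio without that barcode was not computed. The ligands of CXCR3 thus differed more at equal class mix, while most of the difference in *Cxcl16* and *Cxcr3* went with the class mix, and the sign for *Cxcr6* was reversed.

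Past a 2-fold difference, 3 of 5 members were higher in NOD macrophage-like barcodes (*Cxcl9*, *Cxcl10* and *Cxcr6*) and 0 lower, where 7.19% of 14429 genes with at least 20 UMIs were higher and 5.93% lower. *Cxcr6* there had 9.50 and 4.00 CPM, in both strains under 10% of its level in empty droplets, beside T markers that summed to 55.5 and 8.62 CPM and NK markers that summed to 50.1 and 33.9 CPM (8 of 8 detected in each), whose part in it was not tested. In endothelial-like barcodes 4 of 5 members were higher (all but *Cxcl16*) and 0 lower, against 7.97% and 3.88% of 14250 genes. The count includes *Cxcl10*, whose ratio turned to -1.35 with free RNA subtracted. *Cxcr6* in endothelial-like barcodes had 15.9 and 2.64 CPM, a log2 ratio of 2.59 (2.08 to 3.11). These levels were 6.57% and 5.93% of that in empty droplets, which was 242 CPM in NOD and 44.5 CPM in CD1. T markers in endothelial-like barcodes summed to 95.1 CPM in NOD and 6.31 in CD1 (8 of 8 detected in each). NK markers summed to 38.3 and 16.0 CPM (8 of 8 in each). The part of free RNA and of these markers in the receptor values was not tested.

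In T-like barcodes 1 of the 4 members with enough UMIs, *Cxcl9*, counted as higher and 0 as lower, against 13.8% and 5.67% of 13058 genes. Of the genes higher there, 656 had no UMI in CD1, as had *Cxcl9* (48 UMIs in NOD, 34 of them in 1 barcode), which was then at least 1.05-fold higher. In NK-like barcodes 1 of 4 was higher, *Cxcl16* with 23 and 10 UMIs, 14 of the NOD ones in 1 barcode, and 0 lower, against 6.03% and 4.26% of 11745 genes. The counts in T-like and NK-like barcodes were thus set by few UMIs.

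A list of 19 further genes of both axes was examined in the same classes. In macrophage-like barcodes 2 of the 16 with enough UMIs were more than 2-fold higher in NOD (*Tbx21* and *Cd69*) and 1 lower (*Pf4*), with a median log2 ratio of 0.16, against 0.05 over all genes, of which 7.19% were higher and 5.93% lower. *Tbx21* there had 12 UMIs in NOD and 26 in CD1. T markers summed to 55.5 and 8.62 CPM in these barcodes and NK markers to 50.1 and 33.9 CPM, and their part in *Tbx21* was not tested. In T-like barcodes 2 of 15 were higher (*Ifng* and *Itga1*) and 1 lower (*Ifngr2*), with a median of 0.47 against 0.09, where 13.8% and 5.67% of all genes were higher and lower. In NK-like barcodes 1 of 15 was higher (*Dpp4*) and 1 lower (*Itgae*), with a median of 0.21 against 0.04, where these shares were 6.03% and 4.26%. In endothelial-like barcodes 6 of 17 were higher (*Ackr1*, *Dpp4*, *Ifng*, *Tbx21*, *Itgae* and *Cd69*) and 0 lower, with a median of 0.46 against 0.07, where they were 7.97% and 3.88%. All of these 6 were under 10 CPM in either strain, beside T markers at 95.1 and 6.31 CPM and NK markers at 38.3 and 16.0 CPM, whose part in them was not tested. Of the 6, *Ackr1* had 1 UMI in all NOD T-like barcodes and 3 UMIs in all NOD NK-like barcodes.

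Among the other CXCR3 ligands, *Cxcl11* was scarce and *Pf4* was lower in NOD. *Cxcl11* had 13 UMIs in 6 NOD macrophage-like barcodes (3.34 CPM) and 99 UMIs in 8 CD1 ones (5.02 CPM), with an interval of the log2 ratio (-1.55 to 0.25) that held 0. *Pf4*, platelet factor 4, was 32.1 CPM in NOD and 76.7 in CD1 macrophage-like barcodes, a log2 ratio of -1.26 (-1.53 to -0.99). In CD1, *Cxcl11* was 465 CPM in the 26 macrophage-like barcodes with *Cxcl9* and 0.154 CPM in the rest.

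The genes that act on the ligands after synthesis differed by class. *Adam10*, a protease that releases CXCL16, was 176 CPM in NOD and 257 in CD1 macrophage-like barcodes, a log2 ratio of -0.55 (-0.66 to -0.43), and *Adam17* was 297 and 296. *Dpp4*, which encodes a peptidase that trims CXCL10, was 61.4 and 44.5 CPM in T-like barcodes and 22.8 and 1.80 CPM in NK-like barcodes, from 98 and 7 UMIs, a log2 ratio of 3.66 (2.56 to 5.01). *Ackr1*, which encodes a decoy receptor for chemokines on venular endothelium, was 8.19 and 2.48 CPM in endothelial-like barcodes, a log2 ratio of 1.72 (1.12 to 2.33).

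In the interferon-gamma pathway the cytokine gene was higher in NOD. *Ifng* was 111 CPM in NOD (1519 UMIs) and 23.4 in CD1 (21 UMIs) T-like barcodes, a log2 ratio of 2.24 (1.63 to 2.94), and 106 and 53.3 CPM in NK-like barcodes, 0.98 (0.74 to 1.23). The receptor and kinase genes lay within 2-fold in macrophage-like barcodes, with log2 ratios of -0.50 for *Ifngr1*, -0.19 for *Ifngr2*, 0.15 for *Jak1* and 0.91 for *Jak2*. *Irf1* had 0.69 there. *Ifngr2* in T-like barcodes was 9.91 and 32.3 CPM, -1.70 (-2.29 to -1.07).

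Of the transcription factors and residence genes of receptor-bearing lymphocytes, *Tbx21* was 111 and 57.8 CPM in T-like barcodes, a log2 ratio of 0.95 (0.55 to 1.37), just under 2-fold. *Itga1* was 247 and 122 CPM, 1.01 (0.74 to 1.30). *Runx3* had -0.27 (-0.46 to -0.08), and *Prdm1* had 0.87 from 418 and 15 UMIs. *Cd69* was 0.28 in T-like and 1.62 (1.44 to 1.81) in macrophage-like barcodes. *Itgae* was 27.7 and 57.2 CPM in NK-like barcodes, -1.05 (-1.38 to -0.72). *Zfp683* had no UMI in any of the 4 classes.

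**Figure D5:**
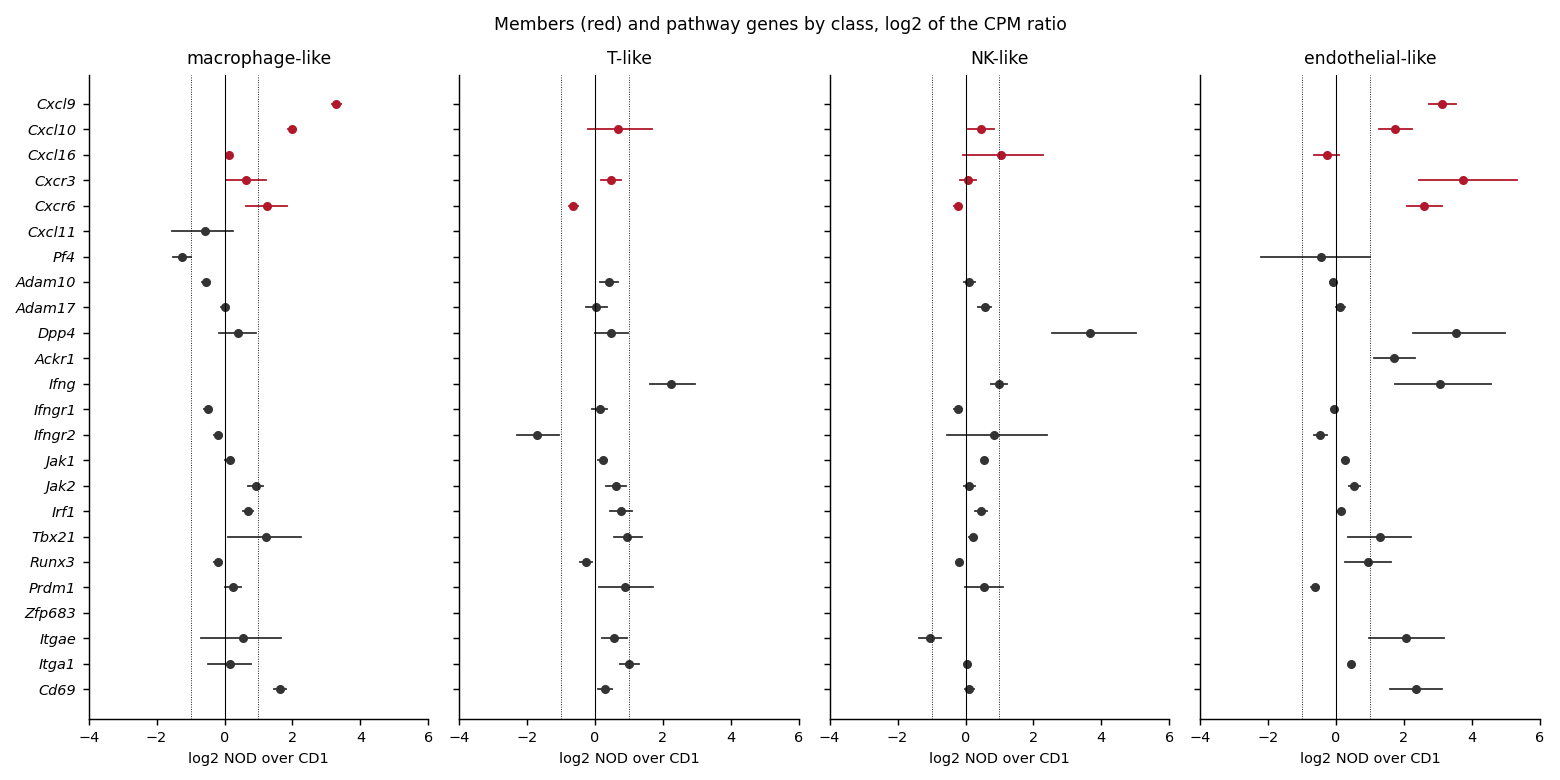
Log2 ratio of NOD over CD1 CPM for the 5 members (red) and 19 pathway genes (dark) in 4 classes, for genes with at least 20 UMIs and a UMI in both libraries; bars are 95% conditional binomial intervals and dotted lines mark 2-fold. *Cxcl9* in macrophage-like barcodes was at 3.29 and *Pf4* at -1.26.

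Across 17 class sums of at least 200000 UMIs, genes among the 5 most like each member were listed by Pearson's r of log2(CPM + 10) over 13221 genes. For *Cxcl9* these were *Ifi204* (0.90), *Rab7b*, *Nampt*, *Zfp516* and *Myof* (0.87). For *Cxcl10* they were *Gm11753* (0.85), *Gm41450*, *Pkdcc*, *Aldh1b1* and *Calhm6* (0.83), and for *Cxcl16* *Depdc7* (0.96), *Adap2os*, *Creb5*, *Adap2* and *Tmem141* (0.95). For *Cxcr3* they were *Gprin3* (0.96), *Acsbg1*, *Rinl*, *Sla2* and *Sytl1* (0.96), and for *Cxcr6* *Gata3* (0.98), *Skap1*, *Ms4a4b* and *Il18r1* (0.97). The sums of a library share their cells' preparation and depth, so r is a description of these 17 points.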

How the data were processed

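The counts deposited by the authors are raw UMI counts per gene and barcode for every barcode, 1 library per strain, from Cell Ranger 8.0.0 per the submitters' processing notes, which also name Seurat 5.0.1, R 4.3.1 and GRCm39. Their values are whole numbers. In total 52790319 UMIs in NOD and 56483149 in CD1 were spread over 1298073 and 1331542 barcodes.

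Barcodes with at least 500 UMIs and 300 genes were kept, holding 43439635 and 49420810 UMIs, with no mitochondrial limit (medians of 5.62% and 5.06%). A barcode took the broad class with at least 3 UMIs over at least 2 of its markers and at least 75% of all marker UMIs, from 14 marker lists that hold none of the genes reported. The same share within T/NK and myeloid barcodes, with at least 2 UMIs, gave the finer class. T-like barcodes were split by *Cd4*, *Cd8a* or *Cd8b1*, and *Foxp3* UMIs. Doublets were set apart only as mixed barcodes, and removal of the highest Scrublet scores (338 and 394 barcodes, scanpy 1.11.5) was an alternative.

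Levels have exact Poisson, shares Clopper-Pearson and ratios conditional binomial intervals at 95% (scipy 1.17.1), for counting error only. Thinned shares are expected values at 2000 UMIs, without shallower barcodes (187 NOD and 5 CD1 T-like, 251 and 721 macrophage-like). A class at 0 was set to 3 UMIs for bounds, which cover the counting of UMIs and not their spread over barcodes. Genes with at least 20 UMIs in a class counted as different past 2-fold, without a test. The ratio intervals were tried on simulated Poisson class sums only. Such sums lack the uneven spread of UMIs over barcodes seen here, so they do not test the intervals for it. Named genes are the 5 members, 19 pathway genes, the 5 most alike genes per member (2 genes of these lists are not reported here), and those said to be chosen after their values were seen. The members and lists were chosen with earlier results of these data known. The alternatives changed the barcode filter, a limit of 10% mitochondrial UMIs, doublets, class purity (90%), clusters in place of marker classes, free RNA, scaling, barcode weight and the UMIs counted per barcode. Python 3.11.15 was used, with matplotlib 3.10.9 for plots.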

Additional observations from a re-analysis of the deposited data

Results flagged for a closer look

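For 3 genes, intervals of the log2 ratio of NOD over CD1 lay above 0 in some classes and below 0 in others, and the differences between classes were not tested. *Cxcl9* was higher in NOD in macrophage-like (3.29), myeloid intermediate (4.51) and endothelial-like barcodes (3.13), whereas plasma-like barcodes held 107 UMIs in CD1, all in 1 barcode, and none in NOD. *Cxcl16* was higher in NOD in macrophage-like (0.13) and myeloid intermediate barcodes (0.76) and lower in dendritic-like ones (-2.36), where CD1 had 4 barcodes. The dendritic-like levels were 107% and 138% of those in empty droplets of NOD and CD1. *Cxcr6* was higher in NOD in macrophage-like (1.25) and endothelial-like barcodes (2.59) and lower in T-like (-0.63), T/NK intermediate (-0.18), NK-like (-0.23) and plasma-like barcodes (-0.93).

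*Cxcr6* was also present in barcodes that no marker list named, at 319 CPM in NOD and 339 CPM in CD1. These barcodes enter the values over all barcodes, the common class mix and the source shares, but none of the named classes.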

How the results depend on the processing

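Of 81 alternative values of the log2 ratios of NOD over CD1, 62 kept their direction and moved by less than the counting interval, 16 moved beyond it with the direction kept, and 3 reversed. Of 60 alternative source shares 29 stayed within their interval and 31 moved. The causes were not tested. In macrophage-like barcodes the ratio of *Cxcl9* (3.29) was 3.02 without the highest Scrublet scores, 2.95 by cluster and 4.07 with at most 10 UMIs per barcode, the last setting chosen after seeing the data. That of *Cxcl10* (1.99) was 1.83, 1.81 and 1.79 under these, 1.73 with free RNA subtracted and 1.63 with each barcode equal. That of *Cxcl16* (0.13) was 0.064 with median-of-ratios scaling and reversed to -0.11 by cluster. In endothelial-like barcodes *Cxcl9* (3.13) was 2.12 with at most 10% mitochondrial UMIs and 2.07 with each barcode equal, and *Cxcl10* (1.75) was 2.79 with at most 10 UMIs per barcode and reversed to -1.35 with free RNA subtracted. In T-like barcodes *Cxcr3* (0.46) was 1.15 by cluster, and *Cxcr6* (-0.63) was -0.50 by cluster and -0.77 with free RNA subtracted. In NK-like barcodes *Cxcr6* (-0.23) was -0.083 at 90% purity and reversed to 0.21 by cluster. Without the highest Scrublet scores the myeloid share in NOD and CD1 was 69.3% and 86.6% for *Cxcl9*, 58.7% in NOD for *Cxcl10*, and 91.1% and 96.6% for *Cxcl16*, and the T/NK share was 94.7% and 81.8% for *Cxcr3* and 94.4% and 86.2% for *Cxcr6*. By cluster these were 84.0% and 76.1% (*Cxcl9*, so that NOD was higher), 62.1% (*Cxcl10*, NOD), 88.7% and 92.8% (*Cxcl16*), and 93.2% and 90.9% (*Cxcr6*). With free RNA subtracted they were 73.3% (*Cxcl9*, NOD), 65.8% (*Cxcl10*, NOD), 96.7% and 96.0% (*Cxcl16*), 98.9% and 82.6% (*Cxcr3*), and 99.5% and 84.4% (*Cxcr6*). At 90% purity they were 63.1% (*Cxcl9*, NOD), 81.4% (*Cxcl10*, CD1), 79.7% and 90.5% (*Cxcl16*), 84.7% and 66.3% (*Cxcr3*), and 85.8% and 72.1% (*Cxcr6*). No paired analysis was possible because each strain has 1 library. The free RNA estimate rests on few UMIs of salivary genes, and CD1 T-like values rest on 114 barcodes.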
